A study of Mus musculus with 12 samples.

Results

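The 35 genes described here are imprinted genes of the mouse, taken by name from the 24060 gene rows measured in 12 rhabdoid tumors. All 35 were listed in every tumor. The tumors arose in P0-CreC;Smarcb1flox/flox mice on the FVB/N background, in which the Cre transgene is active in neural crest and Schwann lineage cells, and Cre deletes Smarcb1, a core subunit of the SWI/SNF chromatin remodelling complex. By the location given for each tumor, 4 were retro-orbital, 3 came from the cheek, 3 from the meninges, 1 from the Vestibular N and 1 from the Trigeminal N. All carried the same deletion and no treatment, no normal tissue was analysed here, and the labels give no age. Tumors are numbered within a location in the order of deposit, and the numbers pair nothing. Cheek 1 and meninges 1, cheek 2 and cheek 3, and retro-orbital 3 and Trigeminal N 1 share the first part of their identifiers, and whether they come from the same mouse is not stated.

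Imprinted genes are expressed mainly from the copy inherited from one parent. The silent and the active copy differ in DNA methylation at an imprinting control region, which is set in the germ line and then protected in the embryo by factors such as the zinc finger protein ZFP57 and its partner TRIM28. Many imprinted genes lie in clusters that hold both paternally and maternally expressed genes, often with a long noncoding RNA, and many act on fetal growth. RNA levels summed over both copies, as here, do not show which copy was active.

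Expression was measured as RPKM, reads scaled to the length of the gene and to the mapped reads of the library. Counted fragments per tumor, worked out from the smallest step in RPKM of the microRNA rows, ranged from 13206168 in cheek 3 to 57128422 in retro-orbital 3. Smarcb1 itself was listed at 1.70 to 6.31 RPKM in the 12 tumors, and since every tumor carries the floxed alleles there was no undeleted library to set this against. Cheek 2 and cheek 3 were the most alike of all tumor pairs, with a Pearson r of 0.984 across genes. Over 28 imprinted genes their fragment numbers differed with a chi-square of 68.1 per gene, more than sampling noise gives, so they are not 1 library deposited again. The study counts 12 tumors, so they were kept as 2. Whether they came from 1 mouse or from 2 is not stated, and the chi-square cannot tell 2 tumors from 2 pieces of 1 tumor. The n, SD and p-values for the cheek treat them as independent. In bulk tumor RNA, fewer cells of a type and less RNA per cell cannot be told apart.

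Short sequences from the loci are printed first, since several results below concern these genes and the microRNA rows of their loci. The use of start sites was not measured. RefSeq on GRCm38.p6, the build the files call mm10, places 57 microRNA hairpins with 111 mature sequences in the Dlk1-Dio3 interval between the start of Dlk1 and the end of Mirg, chr12:109452823-109749460. Their 111 mature sequences hold 102 different seeds (bases 2 to 8), 9 of which are shared by 2 sequences each. The sequences given are those of the microRNAs whose hairpin rows were nearest in pattern to Meg3 and to Rtl1, together with miR-335, whose mature sequences lie inside Mest, miR-335-5p at chr6:30741314-30741336 and miR-335-3p at chr6:30741354-30741375 on the plus strand. Capitals mark the seed.

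mmu-miR-3070-5p: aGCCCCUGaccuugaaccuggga

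mmu-miR-3070-3p: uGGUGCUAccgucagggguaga

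mmu-miR-341-5p: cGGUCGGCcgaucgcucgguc

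mmu-miR-341-3p: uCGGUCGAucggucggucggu

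mmu-miR-335-5p: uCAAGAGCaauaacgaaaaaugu

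mmu-miR-335-3p: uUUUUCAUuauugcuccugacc

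The methylated motif read by ZFP57 is TGCCGC, which reads GCGGCA on the opposite strand. Of the 42 RefSeq promoters of the imprinted genes (28 genes with an entry, each promoter running from 250 bases before to 50 bases after a start site), 10 promoters of 9 genes held it on either strand, or 23.8%, against 11.6% of all 32851 mouse promoters of that length. A match is only a string of letters in a window, and imprinting control regions often lie elsewhere. A window of 30 bases from each of these 9 genes is given 5′ to 3′ along the gene, with the motif in capitals.

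Mest, chr6:30737971-30738000, plus strand: aggaggggcgctGCGGCAggatgggcgggt

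Nap1l5, chr6:58907133-58907162, minus strand: cagccattcactTGCCGCgagccgcgaagc

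Meg3, chr12:109540794-109540823, plus strand: gccaggggcactGCGGCAgatttttttttc

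Grb10, chr11:12037379-12037408, minus strand: gggtgcggggagGCGGCAggaagggaaggg

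Plagl1, chr10:13090730-13090759, plus strand: ctggcgtgttgcGCGGCAaagcccacggca

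Nnat, chr2:157560093-157560122, plus strand: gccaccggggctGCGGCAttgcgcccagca

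Zim1, chr7:6696435-6696464, minus strand: gaaagtcatcccGCGGCAttccactccggg

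Snrpn, chr7:60005184-60005213, minus strand: gacccctgcattGCGGCAaaaatgtgcgca

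Zdbf2, chr1:63200191-63200220, plus strand: aagcgcatccatTGCCGCcgctttgcggct

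The 9 genes differ widely in level, from Snrpn, at 0 in 10 tumors, to Grb10, at up to 669 RPKM, with the values in each tumor given by locus.

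Of the 35 genes, 21 reached 1 RPKM in all 12 tumors, 9 in some tumors and 5 in none. Their levels varied more from tumor to tumor than those of most genes. Taken as the SD of log2(RPKM + 1) among tumors, the spread had a median of 1.08 for the 26 imprinted genes that passed the filter (a level of 1 RPKM or more in 3 or more tumors of the replicated locations), against 0.47 for all genes that passed. For 13 of the 26 it lay above the 90th percentile of all genes. The 9 that did not pass were Ascl2, Slc22a18, Phlda2, Usp29, Snrpn, Magel2, Mkrn3, Zdbf2 and Sfmbt2. These figures describe genes that passed a filter on level and carry no test. The highest tumor exceeded the lowest by more than 10 times for 18 of the 35 genes, Snrpn and the other genes with a 0 left aside. No share over all genes was worked out for this count, so it does not set imprinted genes apart. It includes genes near the floor that did not pass the filter, such as Ascl2 (1 to 41 fragments) and Magel2 (4 to 100 fragments). In the order of the SD of log2(RPKM + 1) the first 12 were Dlk1, Grb10, H19, Mest, Peg10, Asb4, Plagl1, Nnat, Ndn, Rtl1, Cdkn1c and Ppp1r9a.

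**Figure D1:**
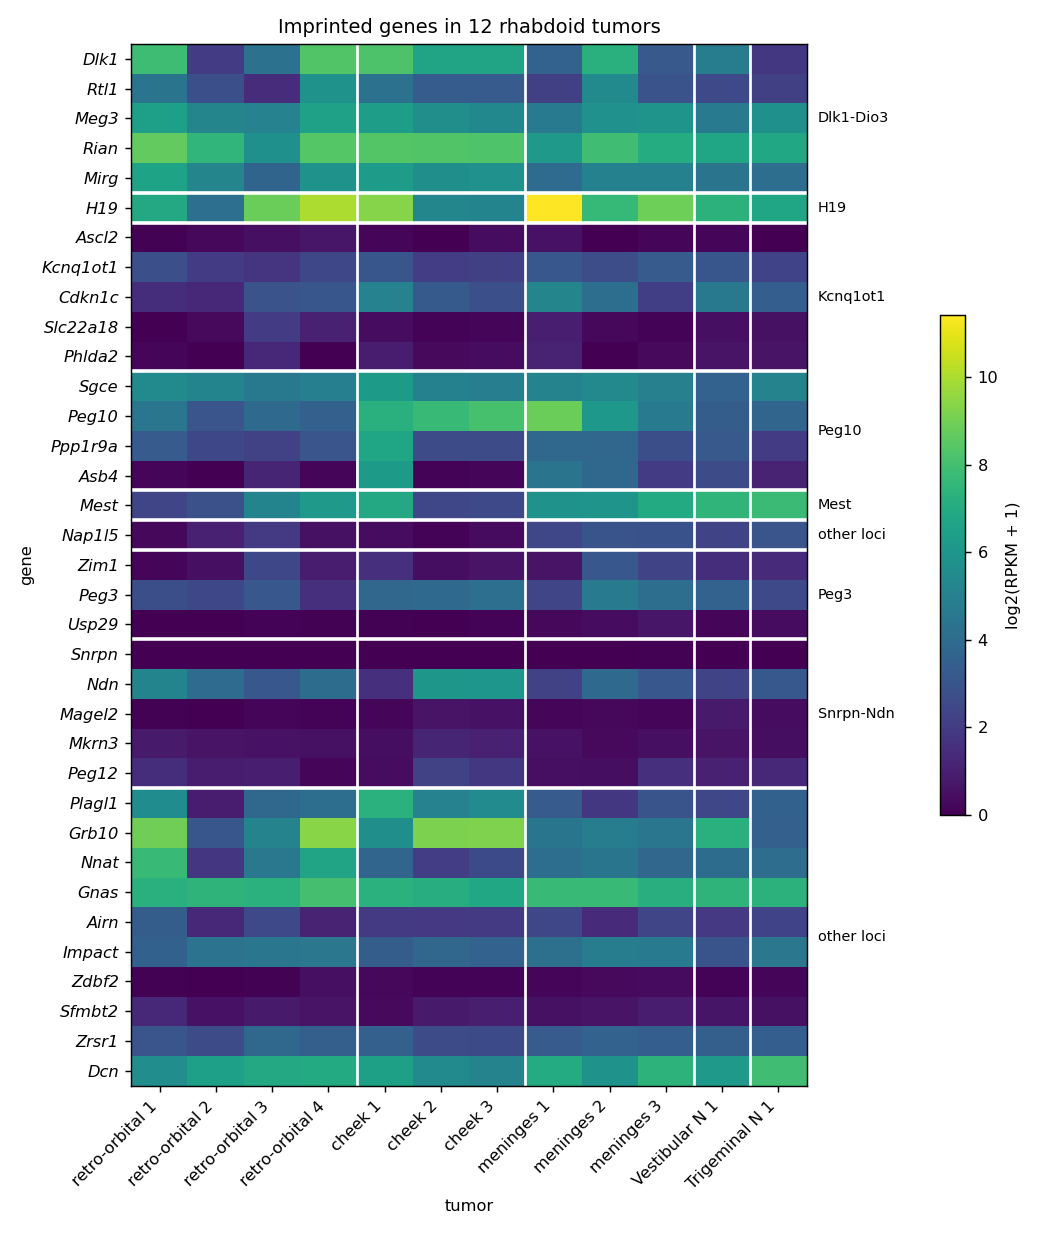
Level of the 35 imprinted genes, as log2(RPKM + 1) in colour, in the 12 tumors (columns, by location), with the genes in rows ordered by locus. H19 was the brightest row, at up to 2760 RPKM in meninges 1, and Snrpn stayed at or near 0 in all tumors.

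The Dlk1-Dio3 locus on chromosome 12 holds paternally expressed protein-coding genes and maternally expressed noncoding RNAs. Dlk1 (chr12:109452823-109463336), a transmembrane protein of the Notch ligand family that restrains differentiation of precursor cells, had the widest spread of the 35 genes. Its level was 234, 2.96, 18.6 and 325 RPKM in retro-orbital 1 to 4, 299.9, 99.99 and 102 RPKM in cheek 1 to 3, 11.2, 152 and 8.12 RPKM in meninges 1 to 3, 27.2 RPKM in Vestibular N 1 and 2.62 RPKM in Trigeminal N 1. All 3 cheek tumors were high, while the retro-orbital and the meninges tumors each held high and low tumors and overlapped with the cheek. Rtl1 (chr12:109589193-109600330), a retrotransposon-derived gene needed in the placenta, was lowest in retro-orbital 3 at 1.78 RPKM. It stood at 20.4, 5.94 and 55.8 RPKM in retro-orbital 1, 2 and 4, 18.1, 9.08 and 8.78 RPKM in the cheek, 3.54, 41.4 and 6.61 RPKM in the meninges, 4.83 RPKM in Vestibular N 1 and 3.56 RPKM in Trigeminal N 1. Dlk1 and Rtl1 were both high in retro-orbital 4 and meninges 2, and both low in meninges 1, meninges 3 and Trigeminal N 1.

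The maternally expressed RNAs of the locus were steadier. Meg3 (chr12:109541001-109571726), a nuclear noncoding RNA, ranged from 24.7 to 93.1 RPKM with a median of 50.7, Rian (chr12:109603940-109661716), the host of small nucleolar RNAs, from 52.1 to 408 RPKM with a median of 215, and Mirg (chr12:109729764-109749460), the host of microRNAs, from 12.0 to 99.2 RPKM with a median of 33.7. Each was thus present in every tumor, over a range of 3.77-fold for Meg3, 7.84-fold for Rian and 8.29-fold for Mirg, where Dlk1 ranged over 124-fold. On the log2 scale the ratio of Dlk1 to Meg3 ran from -4.28 in Trigeminal N 1 to 1.88 in cheek 1 and was positive in 7 tumors. It was negative in retro-orbital 2 (-3.56), retro-orbital 3 (-0.79), meninges 1 (-1.13), meninges 3 (-2.86) and Trigeminal N 1. The ratio of Rian to Meg3 was positive in all 12 tumors, between 0.69 and 2.98.

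Of the 27 gene pairs set for correlation over the 12 tumors, 21 could be tested (11 within a locus and 10 across loci), and 5 passed an adjusted Pearson p of 0.05 by 100000 permutations. All figures are on log2(RPKM + 1) with Benjamini-Hochberg adjustment over the 21 pairs. Rian and Mirg rose and fell together most closely, with r = 0.951 and rho = 0.972 (permutation p = 1e-05, the smallest the permutations can give, adjusted 0.00021, and 2e-05, adjusted 0.00042), and r was 0.925 without the 2 tumors farthest from the median of Rian. For Meg3 and Rian, r was 0.725 (permutation p = 0.00871, adjusted 0.0366) and rho 0.797 (permutation p = 0.0031, adjusted 0.0172), and r fell to 0.616 without the 2 farthest tumors. Meg3 and Mirg gave r = 0.739 (permutation p = 0.00701, adjusted 0.0366) and rho = 0.706 (permutation p = 0.0127, adjusted 0.0533), with r = 0.649 without the 2 farthest.

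Among the paternally expressed genes, Dlk1 and Rtl1 gave r = 0.788 (permutation p = 0.00241, adjusted 0.0253), rho = 0.804 (permutation p = 0.0023, adjusted 0.0172) and r = 0.827 without the 2 farthest tumors. Across the parental divide the relation of Dlk1 to Meg3 did not pass, at r = 0.586 (permutation p = 0.0481, adjusted 0.126) and rho = 0.573 (permutation p = 0.055, adjusted 0.165), with r = 0.723 without the 2 farthest. With 1 tumor kept per shared identifier (9 tumors), only Rian with Mirg still passed, at r = 0.944, while r was 0.772 for Meg3 with Rian, 0.824 for Meg3 with Mirg and 0.766 for Dlk1 with Rtl1. Rian, Mirg, Meg3, Rtl1 and the microRNA hairpins lie close together and in part on opposite strands, and the strand setting of the counting was not stated, so some reads may be shared among them.

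**Figure D2:**
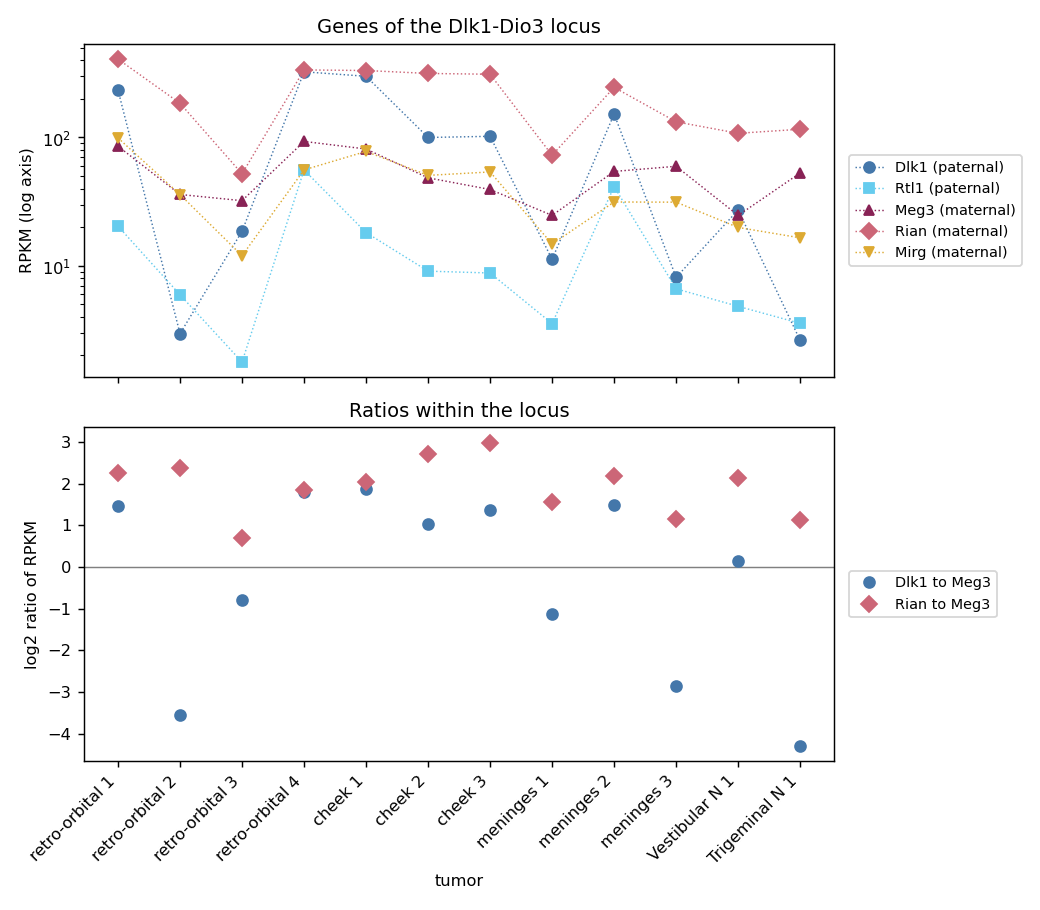
Upper panel, RPKM on a log axis of 5 genes of the Dlk1-Dio3 locus in each tumor, with dotted lines joining the tumors only to guide the eye. Lower panel, the log2 ratio of Dlk1 to Meg3 and of Rian to Meg3 per tumor, the first from -4.28 to 1.88 and the second above 0 in all 12 tumors.

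Genes nearest in pattern to Dlk1, by Pearson r over the 12 tumors and 14741 other genes, were Begain (r = 0.893), a neuronal scaffold protein gene 384606 bases before Dlk1, then Mir376c of the same locus (r = 0.883) and Mapre1 on another chromosome (r = 0.861). Begain stood at 8.85, 2.10, 2.29 and 11.6 RPKM in the retro-orbital tumors, 12.1, 6.996 and 5.70 RPKM in the cheek, 2.80, 16.3 and 2.22 RPKM in the meninges, 1.45 RPKM in Vestibular N 1 and 1.71 RPKM in Trigeminal N 1. The 4 tumors highest in Begain (meninges 2, cheek 1, retro-orbital 4 and retro-orbital 1) were also the 4 highest in Dlk1. Dio3, the deiodinase gene at the far end of the locus, stood at 63.3, 2.90, 1.38 and 109 RPKM in the retro-orbital tumors, 67.2, 1.51 and 0.851 RPKM in the cheek, 25.98, 14.9 and 19.6 RPKM in the meninges, 3.20 RPKM in Vestibular N 1 and 0.253 RPKM in Trigeminal N 1. Unlike Dlk1, it was low in cheek 2 and cheek 3. Of the 57 hairpin rows of the interval, 21 were above 0 in all 12 tumors and 11 were at 0 in all. A hairpin row in a total RNA library counts host and precursor fragments and not the mature microRNA.

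H19 (chr7:142575529-142578143), a maternally expressed noncoding RNA that restrains fetal growth, reached the highest level of the 35 genes. It stood at 119, 17.3, 469 and 1029 RPKM in retro-orbital 1 to 4, at 664, 36.8 and 34.7 RPKM in cheek 1 to 3, at 2760, 201 and 478 RPKM in meninges 1 to 3, at 164 RPKM in Vestibular N 1 and at 108 RPKM in Trigeminal N 1. In meninges 1 it was the gene of rank 7 among all genes, 159.5-fold above its lowest tumor, retro-orbital 2. Low and high tumors occurred in the retro-orbital and cheek locations alike. The nearest genes in pattern were Ccdc92 (r = 0.964), Fam26f (r = 0.943) and Gpr56 (r = 0.939), and none of the pairs set with H19 passed, with r = 0.14 for Dlk1 (adjusted permutation p = 0.778, rho 0.294), r = 0.085 for Meg3 (adjusted permutation p = 0.831, rho 0.217) and r = 0.139 for Plagl1 (adjusted permutation p = 0.778, rho 0.084).

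Next to H19 on chromosome 7 lies the Kcnq1ot1 domain, where a paternally expressed noncoding RNA silences its neighbours. Kcnq1ot1 (chr7:143203458-143296549, antisense to Kcnq1) was present in all tumors at 2.29 to 8.78 RPKM with a median of 5.03. Of the 4 maternally expressed genes of the domain among the 35, Cdkn1c (chr7:143458339-143461050), the cyclin-dependent kinase inhibitor p57, was above 1 RPKM throughout. Cdkn1c stood at 1.81, 1.45, 6.55 and 7.27 RPKM in the retro-orbital tumors, 32.5, 8.51 and 6.01 RPKM in the cheek, 36.1, 16.7 and 3.33 RPKM in the meninges, 23.9 RPKM in Vestibular N 1 and 9.68 RPKM in Trigeminal N 1. Cheek 1, meninges 1 and Vestibular N 1 were the highest, and retro-orbital 1 and 2 the lowest. The log2 ratio of Cdkn1c to Kcnq1ot1 was positive in 9 tumors and ranged from -1.66 to 2.22.

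The other 3 of these genes were low in most tumors. Ascl2, a trophoblast transcription factor, had at most 0.617 RPKM. Slc22a18, a transporter, reached 3.002 RPKM in retro-orbital 3 and 1.06 RPKM in retro-orbital 4 with a median of 0.256 and 0 in retro-orbital 1, and Phlda2, which limits placental growth, reached 1.40 RPKM in retro-orbital 3 and 1.18 RPKM in meninges 1 and was at 0 in 3 tumors. A count of 0 allows up to 3 fragments, worth 0.0713 to 0.308 RPKM of Phlda2 depending on the tumor, and this limit covers counting error only.

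Peg10, Sgce, Ppp1r9a and Asb4 lie together on chromosome 6. Peg10 (chr6:4747306-4760517), a paternally expressed retrotransposon-derived gene, stood at 21.1, 7.11, 14.2 and 10.3 RPKM in the retro-orbital tumors, 153, 209 and 270.4 RPKM in the cheek, 459, 68.3 and 26.3 RPKM in the meninges, 9.28 RPKM in Vestibular N 1 and 12.4 RPKM in Trigeminal N 1. Every retro-orbital tumor was below every cheek and every meninges tumor, with means of 13.2 ± 6.03 (SD, n = 4), 211 ± 58.6 (SD, n = 3) and 185 ± 238 RPKM (SD, n = 3), and the single nerve tumors were low as well. Among 14742 genes, 0.8% had all retro-orbital tumors below both other locations. Sgce (chr6:4674350-4747207), epsilon-sarcoglycan, starts next to Peg10 in the opposite direction and is also paternally expressed, but ranged only from 11.1 to 74.6 RPKM with a median of 32.4. The log2 ratio of Peg10 to Sgce therefore ran from -2.27 in retro-orbital 2 to 3.78 in meninges 1, with means of -1.39 ± 0.68 (SD, n = 4) in the retro-orbital, 2.33 ± 1.15 (SD, n = 3) in the cheek and 1.44 ± 2.09 (SD, n = 3) in the meninges tumors. By an exact permutation test over the 4200 labellings of the 10 tumors the locations gave p = 0.03, adjusted to 0.18 over the 6 ratios, which did not pass.

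The maternally expressed genes of the cluster followed another order. Asb4 (chr6:5383386-5433022), a subunit of an E3 ubiquitin ligase, stood at 0.101, 0.0311, 1.29 and 0.118 RPKM in the retro-orbital tumors, 73.5, 0.084 and 0.161 RPKM in the cheek, 20.4, 13.4 and 2.92 RPKM in the meninges, 5.23 RPKM in Vestibular N 1 and 1.17 RPKM in Trigeminal N 1. The lowest value, in retro-orbital 2, rested on 3 fragments. Ppp1r9a (chr6:4902917-5165661), the actin-binding protein neurabin, stood at 8.66, 4.54, 3.68 and 7.03 RPKM in the retro-orbital tumors, 106.5, 5.20 and 5.27 RPKM in the cheek, 12.9, 12.7 and 5.74 RPKM in the meninges, 8.02 RPKM in Vestibular N 1 and 3.03 RPKM in Trigeminal N 1. Both genes were highest in cheek 1, while cheek 2 and cheek 3 lay among the lowest for Asb4.

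The gene nearest to Asb4 in pattern was Calcr (r = 0.94), the calcitonin receptor, itself imprinted in brain and 1618672 bases away on the same chromosome. Close behind came 4632427E13Rik on another chromosome (r = 0.937). Calcr stood at 47.2 RPKM in cheek 1, 59.0 and 30.1 RPKM in meninges 1 and 2, and between 0.317 and 7.24 RPKM in the other 9 tumors. Peg10 shared neither pattern closely, with r = 0.377 to Sgce, 0.418 to Asb4 and 0.423 to Ppp1r9a, none past the test (adjusted permutation p = 0.405, 0.308 and 0.308, with rho of 0.168, 0.364 and 0.406).

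Further along chromosome 6, Mest (chr6:30723547-30748465), a paternally expressed gene of the alpha/beta hydrolase fold, fell into 2 sets of tumors. It was at 4.24 and 6.08 RPKM in retro-orbital 1 and 2 and at 4.47 and 4.66 RPKM in cheek 2 and 3. The other 8 tumors had 35.2 and 70.7 RPKM (retro-orbital 3 and 4), 119 RPKM (cheek 1), 57.0, 59.9 and 127 RPKM (meninges 1 to 3), 175 RPKM (Vestibular N 1) and 223 RPKM (Trigeminal N 1). No tumor lay between 6.08 and 35.2 RPKM, and the meninges and single nerve tumors were all in the high set. Klf14, a maternally expressed transcription factor gene 207558 bases from Mest, was the nearest gene in pattern, with Sh3bp1 on another chromosome close behind. In the 4 tumors low in Mest, Klf14 did not exceed 0.47 RPKM, and in the 8 high in Mest it was at least 25.2 RPKM. Klf14 stood at 25.2 and 66.7 RPKM in retro-orbital 3 and 4, 81.4 RPKM in cheek 1, 95.0, 46.1 and 57.5 RPKM in the meninges, 62.1 RPKM in Vestibular N 1 and 84.0 RPKM in Trigeminal N 1.

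Because the tumors split into 2 sets, no correlation of Mest with its neighbours is tested over all 12 tumors. Within the 8 high tumors, Mest and Klf14 gave r = 0.58 and rho = 0.31, and r was -0.09 without the 2 tumors farthest in Mest. The hairpin row of Mir335, whose sequences are printed above, gave r = 0.91 and rho = 0.95 with Mest (r = 0.88 without the 2 farthest), and since it lies inside Mest and counts host fragments the rows are not independent. For Copg2, a neighbouring gene, r was 0.79 and rho 0.71 (r = 0.66 without the 2 farthest). These 3 relations were chosen after the values were seen, in tumors chosen by Mest itself, and carry no test. Mir335 ranged from 4.47 to 29.5 RPKM in these tumors and from 0 to 4.17 RPKM in the other 4.

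**Figure D3:**
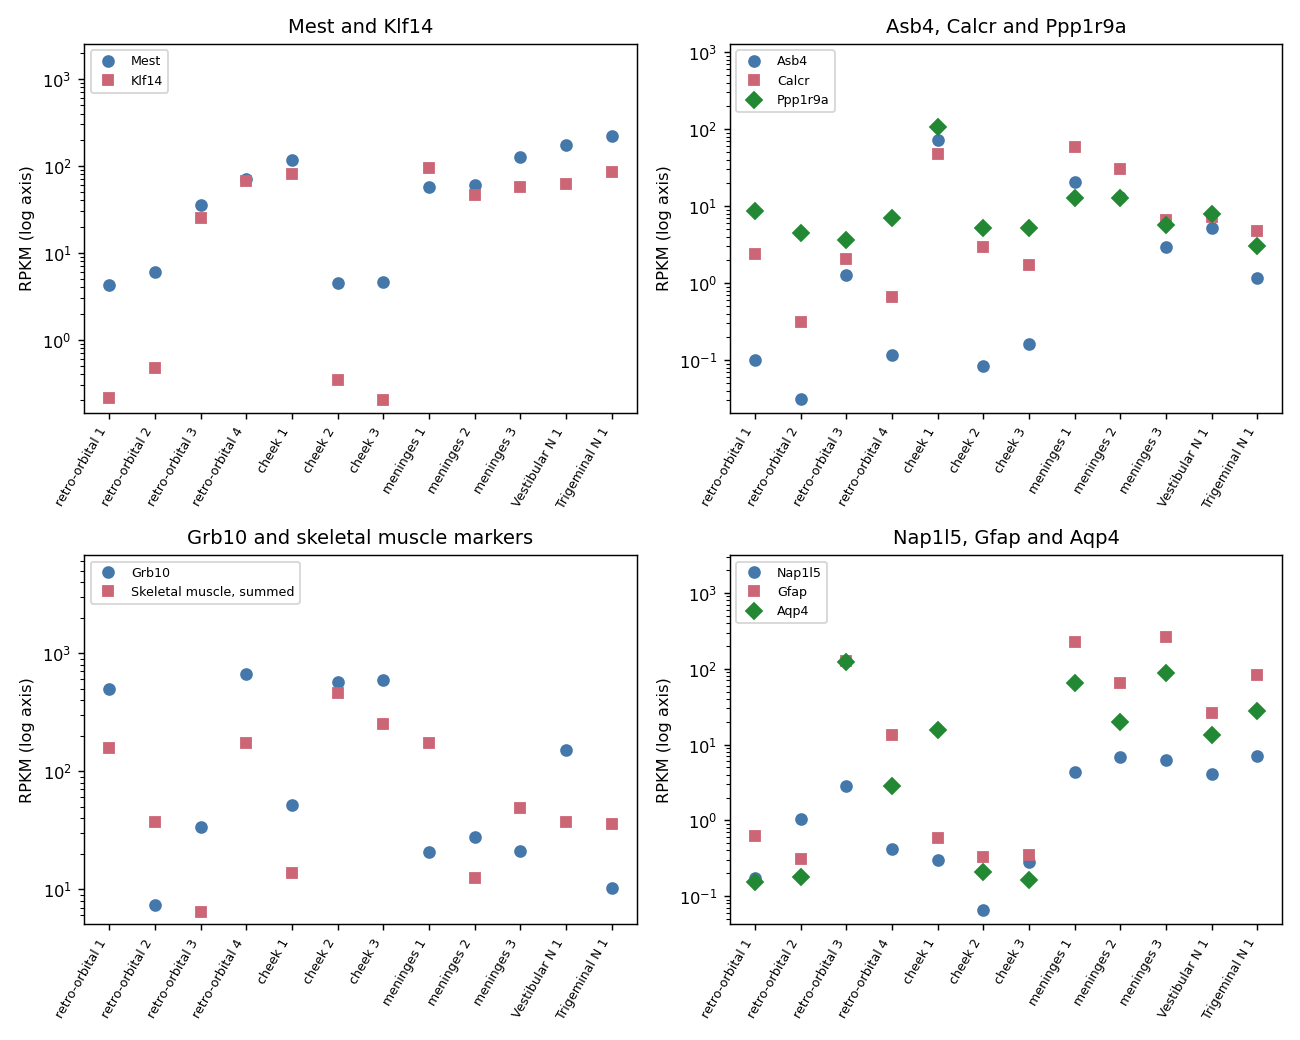
RPKM on a log axis in each tumor for Mest beside Klf14, for Asb4 beside Calcr and Ppp1r9a, for Grb10 beside the summed level of 6 skeletal muscle markers, and for Nap1l5 beside the astrocyte markers Gfap and Aqp4. Klf14 was at or below 0.47 RPKM in the 4 tumors where Mest was below 10 RPKM.

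Nap1l5 (chr6:58905233-58907076), a paternally expressed intronless gene of the nucleosome assembly family, was the gene closest to a difference between locations. It stood at 0.175, 1.04, 2.84 and 0.423 RPKM in the retro-orbital tumors, 0.298, 0.0647 and 0.28 RPKM in the cheek, 4.34, 6.75 and 6.29 RPKM in the meninges, 4.13 RPKM in Vestibular N 1 and 7.01 RPKM in Trigeminal N 1. All 3 meninges tumors, at 5.79 ± 1.28 RPKM (SD, n = 3), were above all retro-orbital tumors, at 1.12 ± 1.20 RPKM (SD, n = 4), and all cheek tumors, at 0.214 ± 0.130 RPKM (SD, n = 3). Among all genes, 3.13% had every meninges tumor above both other locations. The level in cheek 2 rested on 4 fragments. The astrocyte markers Gfap, an intermediate filament, and Aqp4, a water channel, moved with Nap1l5. Gfap stood at 0.626, 0.309, 128 and 13.3 RPKM in the retro-orbital tumors, 0.589, 0.324 and 0.353 RPKM in the cheek, 228, 65.1 and 259.8 RPKM in the meninges, 26.3 RPKM in Vestibular N 1 and 81.5 RPKM in Trigeminal N 1. Aqp4 stood at 0.153, 0.181, 120.9 and 2.83 RPKM in the retro-orbital tumors, 15.4, 0.211 and 0.164 RPKM in the cheek, 65.4, 19.7 and 88.5 RPKM in the meninges, 13.4 RPKM in Vestibular N 1 and 27.4 RPKM in Trigeminal N 1. Both were high in the meninges tumors and in retro-orbital 3, where Nap1l5 was also highest among the retro-orbital tumors. Slc1a3, the astrocyte glutamate transporter, was the second nearest gene in pattern to Nap1l5 (r = 0.946) after Plscr5 (r = 0.954). The summed level of 6 neuronal markers (Snap25, Syt1, Rbfox3, Slc17a7, Gad1 and Syp) was 38.4 to 65.8 RPKM in the meninges, 11.9 to 29.4 RPKM in the cheek and 18.7 to 42.9 RPKM in the retro-orbital tumors. The part of any of these cells in the level of Nap1l5 was not tested.

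In the Peg3 domain on chromosome 7, Peg3 (chr7:6703892-6730431), a paternally expressed zinc finger gene involved in growth and maternal behaviour, ranged from 1.88 to 24.5 RPKM with a median of 9.32. Zim1 (chr7:6671269-6696450), the maternally expressed zinc finger gene beside it, ranged from 0.127 RPKM in retro-orbital 1 to 7.68 RPKM in meninges 2, the tumor where Peg3 was highest too. The pair did not pass the test over the 12 tumors (r = 0.502, adjusted permutation p = 0.229, rho = 0.42, r = 0.295 without the 2 farthest tumors). Usp29, a paternally expressed deubiquitinase gene that starts beside Peg3, never exceeded 0.598 RPKM, and the log2 ratio of Peg3 to Usp29 (pseudocount 0.1 RPKM, as for all ratios) was between 3.58 and 6.88.

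Prader-Willi domain genes, also on chromosome 7, differed among themselves. Ndn (chr7:62346569-62350262), a paternally expressed growth suppressor, was at 34.7, 15.1, 7.66 and 15.5 RPKM in the retro-orbital tumors, 1.92, 65.5 and 63.8 RPKM in the cheek, 3.61, 14.2 and 7.59 RPKM in the meninges, 4.01 RPKM in Vestibular N 1 and 7.84 RPKM in Trigeminal N 1. The cheek thus held both the lowest tumor and the pair of highest tumors. Peg12 ranged from 0.101 to 3.56 RPKM, Mkrn3, a ubiquitin ligase gene, from 0.224 to 1.30 RPKM and Magel2, the sister gene of Ndn, from 0.0292 to 0.755 RPKM, with the maximum of Peg12 and Mkrn3 in cheek 2, as for Ndn. Ndn and Peg12 gave r = 0.647 (adjusted permutation p = 0.0829, rho = 0.469) and r = 0.263 without cheek 2 and cheek 3.

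Snrpn, the small nuclear ribonucleoprotein gene at the imprinting centre of this domain and a gene widely expressed in brain, was listed at 0 in 10 tumors, at 0.0472 RPKM in meninges 3 and at 0.0148 RPKM in Vestibular N 1. The row of Snurf, which shares its transcripts with Snrpn, did not exceed 0.192 RPKM. How reads that overlap both annotations were assigned is not stated, and reads assigned to neither gene would not appear. No ratio to Snrpn was formed for this reason.

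Grb10 (chr11:11930508-12038683), an adaptor protein that dampens insulin receptor signalling and is maternally expressed outside the brain, was second only to Dlk1 in spread. It stood at 498.5, 7.38, 33.5 and 669 RPKM in the retro-orbital tumors, 51.5, 573 and 596 RPKM in the cheek, 20.8, 27.5 and 21.1 RPKM in the meninges, 152 RPKM in Vestibular N 1 and 10.2 RPKM in Trigeminal N 1. Retro-orbital 1, retro-orbital 4, cheek 2 and cheek 3 stood far above the other 8 tumors. The same 4 tumors were the highest for Acta1, the skeletal muscle actin, with 62.8, 60.4, 195.5 and 106 RPKM against 0.49 to 22.04 RPKM in the others. In these 4 tumors all 6 skeletal muscle markers reached 1 RPKM, with a summed level of 156.3, 173.0, 460.3 and 249.2 RPKM. Elsewhere 2 to 5 of the markers reached 1 RPKM and the sum was 6.4 to 172.1 RPKM. The sum of 172.1 RPKM was that of meninges 1, above retro-orbital 1, although Grb10 was at 20.8 RPKM in meninges 1. By the sum, unlike by Acta1, the 4 tumors were thus not the 4 highest. Nearest in pattern to Grb10 were Ankrd23 (r = 0.929), a muscle ankyrin repeat gene, Prx (r = 0.91) and Vasp (r = 0.905). The part of muscle in the level of Grb10 was not tested.

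Grb10 and Dlk1 were the only pair across loci to pass, with r = 0.755 (permutation p = 0.0081, adjusted 0.0366), rho = 0.79 (permutation p = 0.00328, adjusted 0.0172) and r = 0.702 without the 2 farthest tumors. With 9 tumors r was 0.691 and no longer passed. Ddc, the neighbour of Grb10 with an imprinted isoform in heart, was at 226, 225.5 and 202 RPKM in the cheek and at 2.003 to 79.1 RPKM elsewhere.

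Plagl1 (chr10:13060504-13131694), a paternally expressed zinc finger regulator of other imprinted genes, was at 46.7, 0.821, 13.7 and 16.4 RPKM in the retro-orbital tumors, 159, 33.02 and 44.5 RPKM in the cheek, 8.71, 2.58 and 6.83 RPKM in the meninges, 4.44 RPKM in Vestibular N 1 and 10.8 RPKM in Trigeminal N 1. Every cheek tumor was above every meninges tumor, and retro-orbital tumors lay in both ranges. Nnat (chr2:157560078-157562522), a paternally expressed membrane proteolipid of developing neurons, was at 215, 2.50, 23.1 and 100.1 RPKM in the retro-orbital tumors, 12.3, 3.26 and 4.87 RPKM in the cheek, 16.5, 20.6 and 12.6 RPKM in the meninges, 15.3 RPKM in Vestibular N 1 and 16.2 RPKM in Trigeminal N 1. Retro-orbital 1 and 4 were the highest and retro-orbital 2 the lowest. Plagl1 gave r = 0.629 with Dlk1 (adjusted permutation p = 0.0867, rho = 0.594, r = 0.389 without the 2 farthest tumors) and r = 0.171 with Cdkn1c (adjusted permutation p = 0.778, rho = 0.014).

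Genes at other single loci ranged less widely. Gnas, the stimulatory G protein alpha subunit, ranged from 115.5 to 263 RPKM, or over 2.28-fold, Zrsr1, a splicing factor retrogene inside Commd1, from 5.01 to 13.7 RPKM, and Impact, a regulator of translation, from 6.81 to 26.7 RPKM. Decorin (Dcn), a matrix proteoglycan of fibroblasts whose imprinting is known from placenta, ranged from 33.6 to 242 RPKM. Airn, a paternal antisense RNA, was found at 1.11 to 9.21 RPKM. Zdbf2 never exceeded 0.394 RPKM, and Sfmbt2, a placental polycomb gene, passed 1 RPKM only in retro-orbital 1 at 1.44 RPKM.

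**Figure D4:**
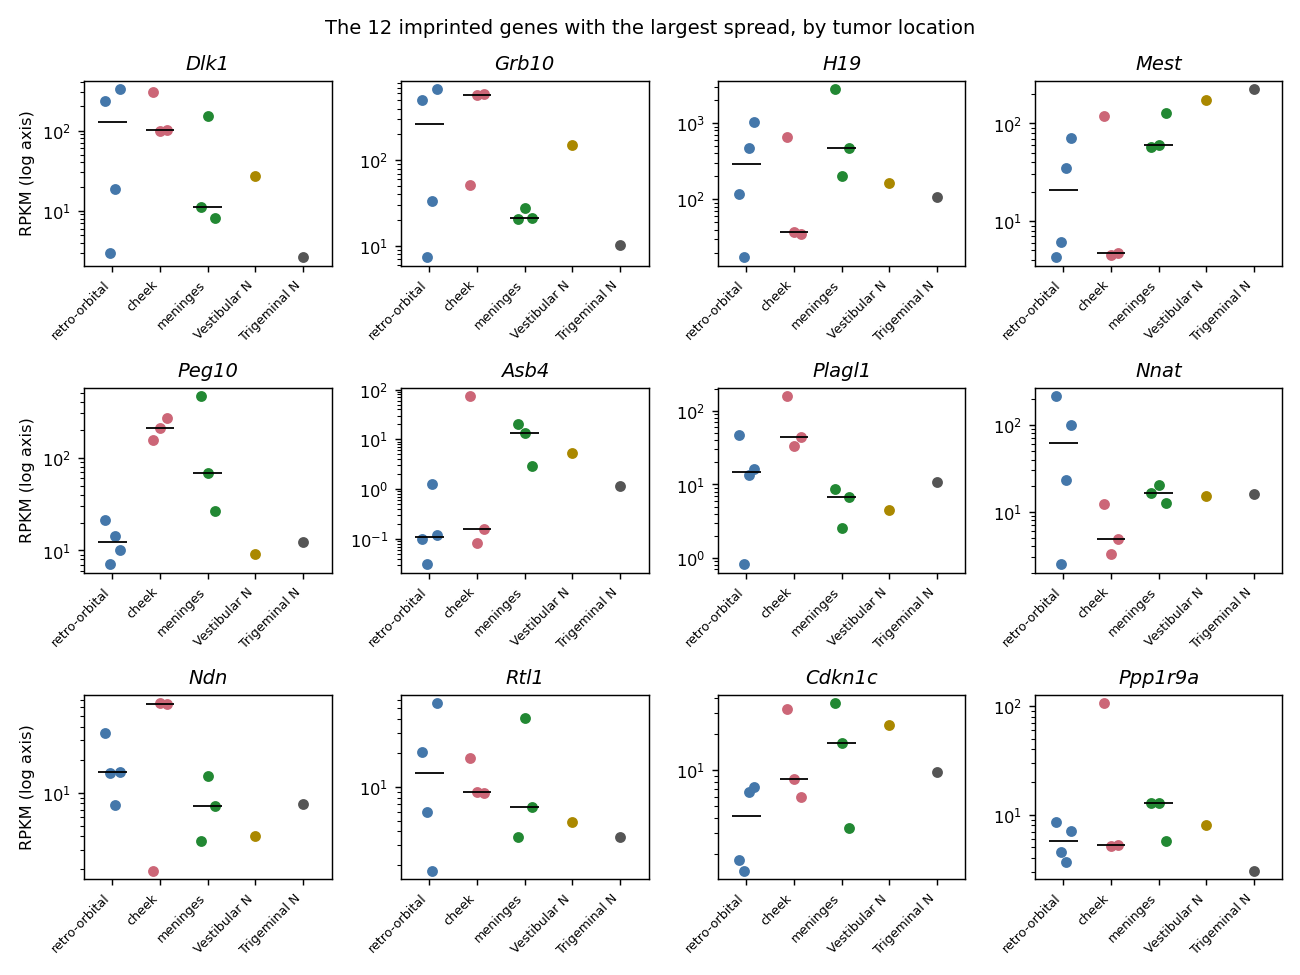
RPKM on a log axis of the 12 imprinted genes with the largest spread, 1 point per tumor by location, with a bar at the median of each replicated location. Peg10 reached at most 21.1 RPKM in the retro-orbital tumors and at least 26.3 RPKM in all cheek and meninges tumors, and for most other genes the locations overlapped.

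To ask whether imprinted genes differed by location, the 10 tumors of the 3 replicated locations were fitted with limma on log2(RPKM + 1) over all 14745 genes that passed the filter, and p-values were adjusted over all of them by the Benjamini-Hochberg method. In the F test over the 3 locations, 0 of 26 imprinted genes had an adjusted p under 0.05, and 6 of all genes did (0.0407%). At an unadjusted p under 0.05 there were 5 imprinted genes, against 14.3% of all genes. With their limma adjusted p, they were Nap1l5 (0.141), Peg10 (0.164), Impact (0.285), Plagl1 (0.325) and Peg3 (0.331). The p-values measure the spread between these tumors, some of which may share a mouse.

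Without a block on the shared identifier, no imprinted gene passed in any single contrast. Of all genes, 0.0271% (cheek minus retro-orbital), 0.0203% (meninges minus retro-orbital) and 0.0475% (meninges minus cheek) did. Unadjusted, 4, 5 and 3 of the 26 were under 0.05, against 12.0%, 9.14% and 17.0% of all genes. The lowest adjusted p-values were those of Nap1l5, Impact and Peg10. Peg10 was higher in the cheek than in the retro-orbital tumors by 3.96 on the log2 scale (SE 0.80, limma adjusted p = 0.178) and higher in the meninges than in the retro-orbital tumors by 2.85 (SE 0.80, limma adjusted p = 0.445). Nap1l5 was higher in the meninges than in the cheek by 2.47 (SE 0.43, limma adjusted p = 0.0783) and than in the retro-orbital tumors by 1.82 (SE 0.40, limma adjusted p = 0.273). Impact was higher in the meninges than in the cheek by 1.02 (SE 0.29, limma adjusted p = 0.163). Plagl1 was lower in the meninges than in the cheek, at -3.28 (SE 1.06, limma adjusted p = 0.207).

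With the shared identifier as a block in the limma fit, 12 of the 26 passed in meninges minus cheek, where 28.8% of all genes did, and 11 of the 26 in the F test, where 2802 of the 14745 genes did. Single tumors decided several of these values. Without retro-orbital 3, Nap1l5 passed in meninges minus cheek (limma adjusted p = 0.0193) and meninges minus retro-orbital (limma adjusted p = 0.0348), without cheek 1 it passed in meninges minus cheek (limma adjusted p = 0.0356), and without cheek 2 or cheek 3, which resemble each other, the limma adjusted p in meninges minus cheek was 0.411 and 0.404. Calls over all genes rose along with it without retro-orbital 3, from 7 to 65 in meninges minus cheek and from 3 to 41 in meninges minus retro-orbital. Without cheek 1, which leaves only cheek 2 and cheek 3 in the cheek, they rose from 7 to 527 in meninges minus cheek. Without meninges 1, Peg10 passed in cheek minus retro-orbital (limma adjusted p = 0.0416). As to whole groups that did not overlap with either other location, 1 imprinted gene (Peg10) had every retro-orbital tumor below and 0 had every one above, where 0.8% and 0.631% of all genes did. For the cheek there were 0 above and 0 below, where 2.56% and 3.39% of all genes were, and for the meninges 1 above (Nap1l5) and 0 below, where 3.13% and 1.03% were. Over the 26 genes the median difference was 0.26 for cheek minus retro-orbital, 0.15 for meninges minus retro-orbital and 0.00 for meninges minus cheek, beside -0.02, 0.13 and 0.16 for all genes tested.

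**Figure D5:**
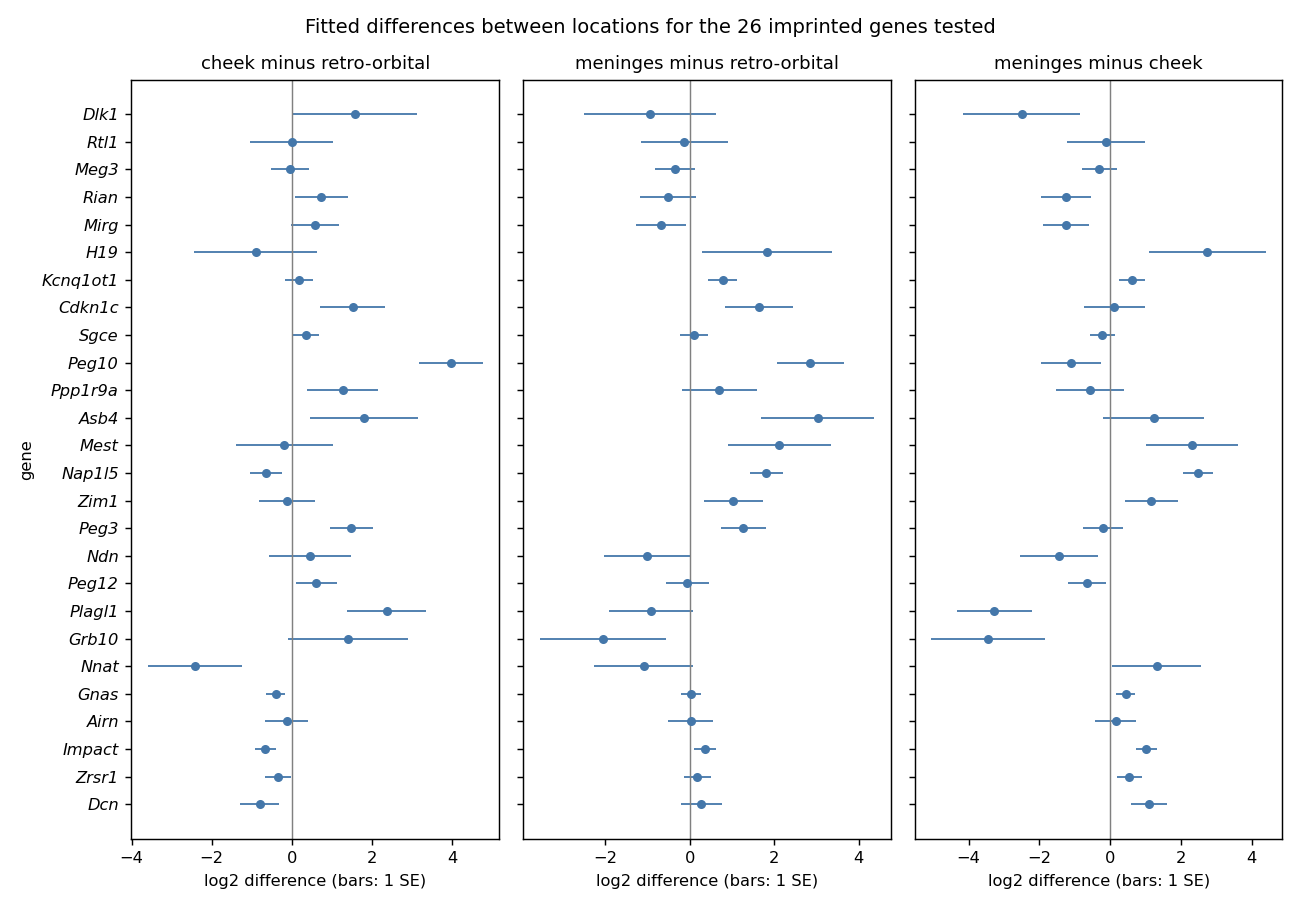
Fitted log2 differences between locations, on the log2(RPKM + 1) scale with bars of 1 SE, for the 26 imprinted genes tested. Peg10 lay farthest to the right in cheek minus retro-orbital at 3.96. None of the differences passed an adjusted p of 0.05 in this fit, which had no block on the shared identifier.

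Of the 26 genes, 25 had a first neighbour in pattern with a known position, and that of Rian (AF357359) had none. For 6 of the 25, the first neighbour lay within 2 Mb on the same chromosome without overlap. They were Dlk1 (Begain), Rtl1 (Mir341, r = 0.905), Meg3 (Mir3070a, r = 0.884), Mirg (the small nucleolar RNA row DQ267102, r = 0.965), Asb4 (Calcr) and Mest (Klf14, r = 0.959 over all 12 tumors). Among 13510 genes with a position, 1.95% had such a neighbour. For Asb4 and Mest a gene on another chromosome came close behind (4632427E13Rik, r = 0.937, and Sh3bp1, r = 0.957). The r of Mest spans the 2 sets of tumors described above. This count is a description with no test, and 4 of the 6 genes lie in the Dlk1-Dio3 locus.

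The 39 other imprinted genes listed alongside included Calcr, Klf14, Dio3, Begain and Ddc, and 37 were found. Of these 29 were tested, and 0 passed in the F test by limma after adjustment. Unadjusted, 10 were under 0.05, against 14.3% of all genes, with Ddc (adjusted 0.185) and H13 (adjusted 0.246) first. Among the 10 factors that set or keep imprints, 9 reached 1 RPKM in all 12 tumors, and by limma 0 passed in the F test, or at an unadjusted p under 0.05. In the contrasts, 1 (cheek minus retro-orbital), 2 (meninges minus retro-orbital) and 0 (meninges minus cheek) of the 9 tested were under 0.05 unadjusted. The shares over all genes were 12.0%, 9.14% and 17.0%. Zfp57, which binds the motif printed above, ranged from 1.11 RPKM in retro-orbital 2 to 21.6 RPKM in retro-orbital 1, and its partner Trim28 from 47.2 to 145 RPKM. The maintenance methyltransferase Dnmt1 ranged from 17.1 to 67.2 RPKM.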

How the data were processed

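RNA of 12 tumors was extracted with the RiboPure kit, depleted of ribosomal RNA, made into TruSeq Stranded libraries and sequenced in 1 pool. Per the labels and the study's methods, the authors aligned reads to mm10 with STAR, used HTSeq to count fragments over RefSeq genes, and deposited the resulting RPKM values, 1 file per tumor. The gene lengths, the mapped reads used as denominator and the strand setting of the counting are not given in the sources used here. Among the 24060 rows, 27 are named as dates, which spreadsheet programs make of some symbols, and these are not named here.

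The imprinted genes and all other lists were chosen with earlier results of these data known, and groups came from the labelled location. Location was tested with limma 3.58.1 in R 4.3.3 on log2(RPKM + 1), using a robust prior variance that follows the mean level, for genes of at least 1 RPKM in at least 3 of 10 tumors, with Benjamini-Hochberg adjustment over all genes at 0.05. Fold changes on this scale understate the change of low genes. In simulated data with 200 genes changed by 3 on the log2 scale, 86% were recovered and 3.9% of calls were false, and smaller changes were not simulated. The changes were planted in the meninges tumors, in genes with a mean log2(RPKM + 1) above 3, with noise drawn independently for each tumor. The share recovered therefore does not cover lower genes or tumors of a shared mouse. It was not worked out for the imprinted genes, whose spread was wider than that of most genes. Correlations used 100000 permutations, and ratios the exact permutation test, in Python 3.11.15. Fragment totals came from the RPKM steps of microRNA rows, where 91.9% to 95.9% of values came out whole to within 0.02 of a fragment. Gene positions are from GENCODE M21 on GRCm38, microRNAs and promoters from RefSeq on GRCm38.p6. All 35 genes are accounted for, with the value in every tumor for the 12 of largest spread, and nearest genes are given by rule for the 3 of largest spread and, added later, for some others. Alternatives covered the pseudocount, the filter, the scaling, the prior variance, the tumors fitted, the shared identifiers and each tumor left out. Summed marker levels are given for skeletal muscle and neurons.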

Additional observations from a re-analysis of the deposited data

Results flagged for a closer look

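In the 4 retro-orbital tumors, Asb4 had 1 tumor far from the others. Retro-orbital 3, at 1.29 RPKM, was separated from the next tumor by 0.898 of the whole range of log2(RPKM + 1). This was above the critical value of Dixon's test for 4 values. The other 3 retro-orbital tumors were at 0.0311 to 0.118 RPKM, on 3 to 16 fragments and far below the added 1 RPKM. Adding 1 RPKM draws such low values together, so the gap depends on it. Whether Asb4 would pass without the added 1 RPKM was not tested. The log2 ratio of Peg3 to Usp29 was set apart in retro-orbital 4, at 3.60 against 5.40 to 5.71 in the other 3 retro-orbital tumors, with a gap of 0.852 of the range. In these 4 tumors Usp29 was at 0 to 0.0818 RPKM, on 0 to 36 fragments and below the pseudocount of 0.1 RPKM. Peg3 was at 1.88 RPKM in retro-orbital 4 and at 4.63 to 7.55 RPKM in the other 3. Of the 32 values screened in this way 2 were past the critical value, where chance gives 1.6.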

How the results depend on the processing

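The 4 counts of imprinted genes past the limma threshold, 0 in each case, stayed at 0 with a pseudocount of 0.1, no filter, median-ratio or quantile scaling, a constant prior variance or all 12 tumors. With the shared identifier as a block (consensus correlation 0.93, which rests on cheek 1 with meninges 1 and cheek 2 with cheek 3) the count was 11 in the F test and 12 in meninges minus cheek, beside 2802 and 4243 of all genes, and the cause was not tested. Leaving out 1 tumor gave 0 to 1 imprinted genes in the F test (0 to 198 of all genes), in cheek minus retro-orbital (0 to 147) and in meninges minus retro-orbital (0 to 41), 0 to 3 in meninges minus cheek (0 to 527), and 0 to 1 of the ratios. Those gained were Nap1l5 without retro-orbital 3, Peg10 and the ratio of Peg10 to Sgce without meninges 1, and Asb4, Nap1l5 and Ndn without cheek 1. Pairs past the correlation test fell from 5 to 2 without the 2 farthest tumors and to 1 with 9 tumors. Signs of weak correlations turned without the 2 farthest tumors for H19 with Plagl1 (-0.085), Plagl1 with Cdkn1c (-0.604), Plagl1 with Peg3 (-0.219), Dlk1 with Cdkn1c (-0.076) and Mest with Plagl1 (0.099), with 9 tumors for Plagl1 with Peg3 (-0.035) and Mest with Peg3 (0.259), and with median-ratio scaling for H19 with Meg3 (-0.007). At a threshold of 5 RPKM, 11 of the 35 genes were past it in all tumors. The 13 genes above the 90th percentile of spread were 13 with 9 tumors, 9 with a pseudocount of 0.1 and 13 without retro-orbital 3 and cheek 3, alternatives chosen after seeing the data. The labels give no replicate numbers, so the shared identifier was the only pairing that could be fitted.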
